A study of Mus musculus with 3 samples.

Results

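The 9 oligodendrocyte lineage genes described here were chosen by name, as 5 myelin genes (Mbp, Mog, Mag, Mobp and Cnp) and 4 precursor genes (Pdgfra, Cspg4, Olig1 and Olig2), and all 9 were found among the 32532 genes of the count files. The libraries hold RNA from tagged polysomes of the cortex-amygdala transition zone, captured with an antibody to EGFP. The mice carried Lypd1-EGFP-L10a, a ribosomal protein joined to EGFP and driven by Lypd1 regulatory DNA, in line OI82. There was 1 group, with 3 immunopurified libraries (replicates 1, 2 and 3) from untreated adult control mice. Their exact age and any pooling of animals are not stated in the sources used here. No unpurified tissue RNA was analysed here, so every value is a level in the captured RNA and not an enrichment over the tissue.

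Oligodendrocytes wrap axons in myelin, and they arise from dividing precursor cells that stay in the adult brain. Precursors carry the growth factor receptor Pdgfra and the surface proteoglycan Cspg4, and the transcription factors Olig1 and Olig2 act throughout the lineage. On maturation the cells switch on myelin genes, among them Mbp, Mobp, Cnp, Mag and Mog, and in grey matter both stages lie among the neurons.

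Levels are given in CPM, a gene's counts after each library's gene counts are scaled to sum to 1000000. Assigned totals were 18526251, 24690301 and 8668527 in replicates 1, 2 and 3. A gene counted as detected where no library gave it less than 1 CPM. Of 14 pan-neuronal markers 14 were detected, as were 12 of 12 astrocyte markers, 7 of 10 mural, 8 of 10 endothelial, 7 of 9 fibroblast and 5 of 12 microglial markers. The p-values below rest on these libraries only. Those for single genes measure the spread between the libraries. Those for contrasts of gene groups compare the mean difference within libraries with its values after sign flips.

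The upstream DNA of 4 of the lineage genes is shown, chosen after their values were seen. Mobp and Cnp each had their highest level in replicate 1, and Pdgfra and Cspg4 their lowest. Mbp, Mag and Olig2 were also highest there and Mog was also lowest there, and their sequences are not shown. In replicate 1 Mobp lay only 0.23 above its own mean in log2(CPM), against 0.80 for Olig2. The sequences are RefSeq promoter windows of GRCm38.p6, plus strand, 5′ to 3′, ending before the annotated transcript starts. Capitals mark ACAAAG or its reverse complement CTTTGT, a core sequence bound by SOX factors such as Sox10.
Mobp, chr9:120149492-120149706: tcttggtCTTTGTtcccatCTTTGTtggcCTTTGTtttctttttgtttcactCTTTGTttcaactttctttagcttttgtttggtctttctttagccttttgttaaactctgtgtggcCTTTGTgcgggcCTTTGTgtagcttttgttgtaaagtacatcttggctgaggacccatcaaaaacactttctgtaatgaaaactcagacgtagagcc
Cnp, chr11:100574689-100574903: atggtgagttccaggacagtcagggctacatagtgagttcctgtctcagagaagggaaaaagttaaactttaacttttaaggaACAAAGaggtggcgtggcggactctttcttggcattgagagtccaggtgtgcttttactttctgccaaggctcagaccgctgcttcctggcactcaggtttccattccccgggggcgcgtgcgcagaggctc
Pdgfra, chr5:75152001-75152250: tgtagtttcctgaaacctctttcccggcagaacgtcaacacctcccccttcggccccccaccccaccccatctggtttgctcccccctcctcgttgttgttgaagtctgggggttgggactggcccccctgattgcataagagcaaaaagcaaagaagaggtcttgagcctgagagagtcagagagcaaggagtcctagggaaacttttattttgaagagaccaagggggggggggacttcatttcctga
Cspg4, chr9:56864854-56865032: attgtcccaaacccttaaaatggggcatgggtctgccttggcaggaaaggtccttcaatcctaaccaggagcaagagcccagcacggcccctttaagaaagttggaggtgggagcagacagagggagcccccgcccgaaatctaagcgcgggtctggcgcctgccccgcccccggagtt

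Windows of 250 bases before the RefSeq start were matched for 7 of the 9 genes. Mbp was left out of this search, and no window was found for Olig1. The windows were searched on both strands for ACAAAG, for the related SOX core ACAATG, and for the E-boxes CAGCTG and CATATG. The Mobp window held ACAAAG 6 times, and it was the 1 window among 32851 with 6 or more matches. That cut-off equals the count in the Mobp window, which therefore met it by construction. The Cnp window held ACAAAG 1 time. Of the 3 Mag windows 2 held it 1 time, and these overlap and share the same match. A match to ACAAAG was found in 16.5% of all windows. It was found for 3 of the 7 matched genes, the myelin genes Mobp, Cnp and Mag, and not for Mog, Pdgfra, Cspg4 or Olig2. This count is per gene, and Mag had 3 windows, while the share of all windows is per window, so they are not like measures. The Olig2 window held 1 match to ACAATG, which 10.7% of all windows held. Neither E-box was found in a matched lineage gene window, against 13.0% of all windows for CAGCTG and 3.46% for CATATG. A match describes the letters in the window and not a bound site.

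All 9 lineage genes were detected in each library, where 39.3% of all listed genes were. Without correction for length their mean levels ran from 6.56 CPM for Mog to 109 CPM for Mbp.

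The structural myelin genes rested on the most counts. Mbp encodes myelin basic protein, which holds the myelin membranes together from the cytoplasmic side, and its messenger RNA is known to travel into the myelinating processes. Mbp measured 139, 113 and 74.1 CPM in replicates 1, 2 and 3, or 109 ± 32.8 CPM (SD, n = 3). The counting intervals (exact Poisson, 95%, which cover counting error only) did not overlap between any of the 3 libraries, and replicate 1 was the highest at 134 to 145 CPM. The annotation lists 16 transcripts of Mbp (ENSMUSG00000041607.17). The gene is also known to give Golli forms, which neurons make, and counts per gene do not separate these from the myelin forms.

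Mobp (ENSMUSG00000032517.16, chromosome 9, 120149707 to 120181484, plus strand) encodes a small basic protein of compact myelin. Its levels were 48.2, 32.4 and 44.4 CPM in replicates 1, 2 and 3, a mean of 41.7 ± 8.27 CPM (SD, n = 3). Replicates 1 and 3 overlapped in their counting intervals and replicate 2 lay below both. Mobp shares 79 exon bases with Gm38642, which the count files do not list.

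Cnp (ENSMUSG00000006782.16, chromosome 11, 100574904 to 100591729, plus strand) encodes a cyclic nucleotide phosphodiesterase of the non-compact parts of myelin. It measured 70.6, 33.6 and 30.5 CPM in replicates 1, 2 and 3, a mean of 44.9 ± 22.3 CPM (SD, n = 3). Replicate 1 stood apart, at 2.32 times the lowest library, and the other two overlapped in their counting intervals. Cnp shares 154 exon bases with Dnajc7 on the opposite strand. No source used here states the strand setting of the counting, so reads from that stretch cannot be told apart.

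The surface proteins of myelin rested on few counts. Mag (ENSMUSG00000036634.15, chromosome 7, 30899176 to 30914873, minus strand) encodes an adhesion protein facing the axon. It measured 10.7, 2.67 and 9.46 CPM in replicates 1, 2 and 3, from 199, 66 and 82 counts. Replicate 2 was 4.02 times below replicate 1, the widest fold between libraries among the 9 genes, and its counting interval of 2.07 to 3.40 CPM lay clear of the other two.

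Mog (ENSMUSG00000076439.12, chromosome 17, 37010743 to 37023398, minus strand) encodes a glycoprotein of the outermost myelin surface. It measured 5.13, 7.74 and 6.81 CPM in replicates 1, 2 and 3, from 95, 191 and 59 counts, a mean of 6.56 ± 1.32 CPM (SD, n = 3). Mog was the 1 myelin gene that was lowest in replicate 1, and the counting interval of replicate 3 overlapped both others.

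**Figure D1:**
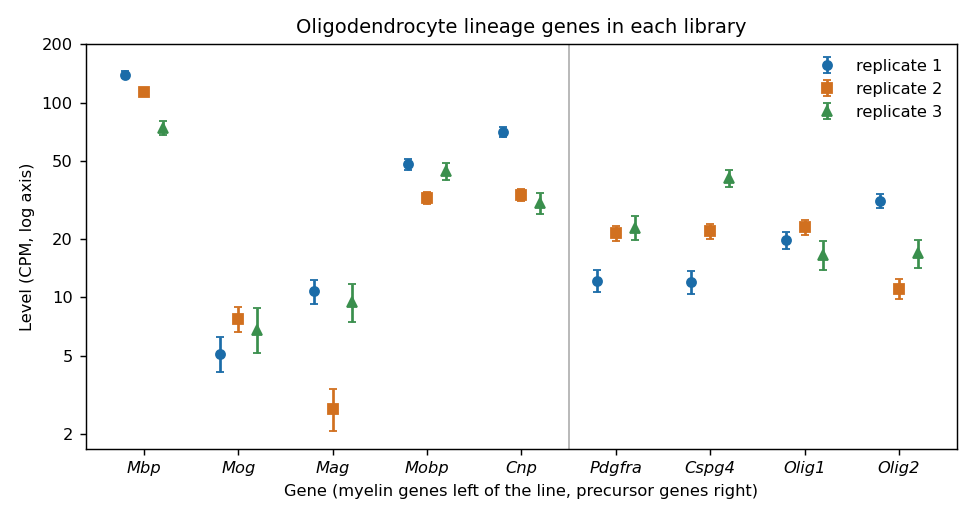
Level of each of the 9 lineage genes in CPM on a log axis, by library (points, replicates 1 to 3), with exact Poisson 95% intervals of the counts as vertical lines. Mbp sits highest, from 74.1 to 139 CPM, and Mag in replicate 2 is the lowest value at 2.67 CPM.

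Among the precursor genes, both surface proteins were lowest in replicate 1. Pdgfra (ENSMUSG00000029231.15, chromosome 5, 75152292 to 75198215, plus strand) encodes the receptor through which PDGF-A drives precursor division, and fibroblasts carry it too. It measured 12.2, 21.4 and 22.8 CPM in replicates 1, 2 and 3, a mean of 18.8 ± 5.77 CPM (SD, n = 3). Replicate 1 lay below both others, whose intervals overlapped. With TMM or DESeq2 scaling replicate 2 and not replicate 3 was the highest, and replicate 1 was the lowest under every scaling run. Its exons share 456 bases with Gm42802 on the opposite strand, which the count files do not list, and 30 bases with the microRNA gene Mir7025, which they do.

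Cspg4 (ENSMUSG00000032911.6, chromosome 9, 56865033 to 56899870, plus strand) encodes the NG2 proteoglycan of precursors, which pericytes also carry. It measured 11.98, 21.8 and 40.8 CPM in replicates 1, 2 and 3, from 222, 539 and 354 counts. The counting intervals of the 3 libraries did not overlap, and replicate 3 was 3.41 times replicate 1.

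The markers of those other cell types did not move together, and the genes named here were chosen after their values were seen. The summed level of the 10 mural markers was 165, 61.1 and 91.2 CPM in replicates 1, 2 and 3. The smooth muscle genes Myh11, at 47.2, 7.21 and 6.69 CPM, and Acta2, at 22.6, 0.648 and 1.27 CPM, were high in replicate 1. Of the 10, 5 were highest in replicate 1 and 4 (Vtn, Notch3, Tagln and Kcnj8) in replicate 3, like Cspg4. Vtn, at 7.93, 10.4 and 17.2 CPM, ran in the same order as Pdgfra and Cspg4, and Notch3 measured 20.6, 3.81 and 29.1 CPM. Kcnj8, a pericyte channel, had 0 counts in replicates 1 and 2 and 1.38 CPM in replicate 3. The 9 fibroblast markers summed to 134, 252 and 98.5 CPM, with Igf2 alone at 59.8, 216 and 39.7 CPM. Among them Slc6a13, at 5.94, 7.05 and 9.57 CPM, also ran in the order of Pdgfra and Cspg4. The nuclear and ribosomal RNAs Malat1, Meg3, Snhg11, Neat1 and Rn45s summed to 142373, 123564 and 206683 CPM. Malat1, Meg3 and Snhg11 were each highest in replicate 3, like Cspg4. Neat1, at 41.5, 10.2 and 38.0 CPM, was highest in replicate 1. The ribosomal Rn45s, at 79910, 92580 and 67326 CPM, was highest in replicate 2 and lowest in replicate 3. The part of these markers and RNAs in the spread of Pdgfra and Cspg4 was not tested.

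The transcription factors differed from each other. Olig1 (ENSMUSG00000046160.6, chromosome 16, 91269772 to 91271933, plus strand), a basic helix-loop-helix factor needed for myelination, measured 19.6, 22.9 and 16.5 CPM in replicates 1, 2 and 3. Its coefficient of variation of 16.2% was the lowest of the 9 in CPM. With TMM scaling Mobp had the smaller fold between libraries, 1.43 against 1.55 for Olig1, and with DESeq2 scaling 1.44 against 1.58. Its annotated exon shares 157 bases with Gm15966 on the opposite strand, a gene that the count files do not list.

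Olig2 (ENSMUSG00000039830.9, chromosome 16, 91225457 to 91228677, plus strand), its neighbour and relative, which specifies the lineage, measured 31.3, 11.1 and 16.8 CPM in replicates 1, 2 and 3. The counting intervals did not overlap, and replicate 1 was 2.83 times replicate 2. Per kb of exon the ratio of Olig2 to Olig1 was 1.36, 0.413 and 0.872 in replicates 1, 2 and 3, so the order of the pair changed with the library.

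Across the 9 genes, 5 were highest in replicate 1 (Mbp, Mag, Mobp, Cnp and Olig2), or 4 of the 5 myelin genes and 1 of the 4 precursor genes. Of all 15336 genes whose mean reached 1 CPM, 31.6% were highest in replicate 1. Lowest in replicate 1 were 3 of the 9 (Mog, Pdgfra and Cspg4), against 34.7% of all those genes. The summed CPM of the myelin genes was 274, 189 and 165 in replicates 1, 2 and 3, and that of the precursor genes 75.1, 77.2 and 97.0. Per kb of exon the myelin genes summed to 48.5, 32.5 and 29.9 CPM and the precursor genes to 23.7, 18.9 and 19.99. On that scale both sums were highest in replicate 1. Without Mbp the myelin sum per kb was 32.1, 19.1 and 21.2 CPM in replicates 1, 2 and 3. It then stayed above the precursor sum in replicate 1 and lay close to it in replicates 2 and 3. Most of the excess in replicates 2 and 3 thus rested on Mbp, and the part of the Golli forms in it was not tested. The 12 astrocyte markers were also highest in replicate 1 for 11 of 12 genes, summing to 3196, 1902 and 1803 CPM, and their part in the pattern was not tested.

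**Figure D2:**
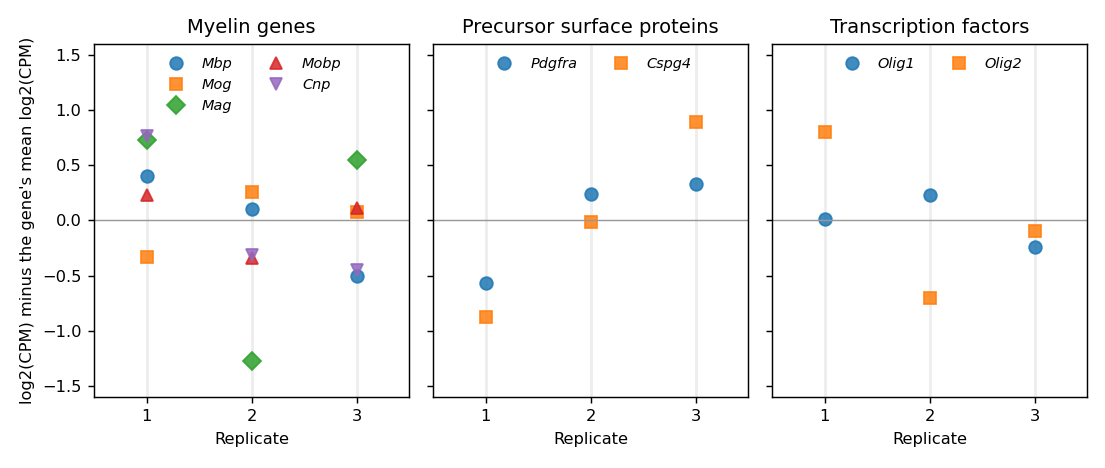
Each gene's log2(CPM) in replicates 1 to 3 relative to its own mean over the libraries, in panels for the myelin genes, the precursor surface proteins and the transcription factors. Pdgfra and Cspg4 lie at −0.57 and −0.88 in replicate 1, while Cnp, Mag and Olig2 lie at 0.76, 0.73 and 0.80 there.

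None of the 9 genes was called as varying between the libraries when edgeR tested each gene against the trend of variation with abundance. Adjusted p (Benjamini-Hochberg) lay between 0.89 for Cnp and 0.998 for Mog, Mobp and Olig1, 0 of the 9 had an unadjusted p under 0.05, and 0 were called by DESeq2's search for dispersion outliers. The same test called 32 of 15336 genes, or 0.209%, at an adjusted p under 0.05, and 1200 genes had an unadjusted p under 0.05. The median coefficient of variation was 30.7% over the 9 genes and 34.7% over the 9229 genes whose mean lay in the same range. The spread of Mag, Cspg4 and Olig2, with coefficients of variation of 56.9%, 58.9% and 52.9%, was the widest of the 9.

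Levels of different genes are compared per kb of annotated exon, since longer transcripts give more reads. On that scale Mbp and Cnp had the highest means, at 12.8 ± 3.87 and 12.3 ± 6.14 CPM per kb (SD, n = 3). Next came Olig1 at 9.10 ± 1.48, Olig2 at 7.80 ± 4.12 and Mobp at 6.08 ± 1.21 CPM per kb. Mog followed at 3.85 ± 0.776, Cspg4 at 2.09 ± 1.23, Pdgfra at 1.88 ± 0.576 and Mag at 1.87 ± 1.06 CPM per kb. Of the 8 neighbouring pairs in this order, Mobp above Mog was the 1 pair whose ranges did not overlap, with a log2 difference within libraries of 0.66 ± 0.58. Mog was above Cspg4 in 3 of 3 libraries, by 1.04 ± 0.72 on the log2 scale. The other 6 neighbouring pairs changed order between libraries. With the longest transcript as length Mobp, at 12.7 ± 2.52 CPM per kb, had a higher mean than Olig1 and Olig2. Mag was then no longer last, at 3.13 ± 1.78 against 3.06 ± 1.81 for Cspg4 and 2.75 ± 0.844 for Pdgfra. Among 11741 detected genes with an annotated length, Mbp lay at the 72.1st percentile of CPM per kb on average, Olig1 at the 63.6th, Pdgfra at the 19.1st and Mag at the 18.1st.

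**Figure D3:**
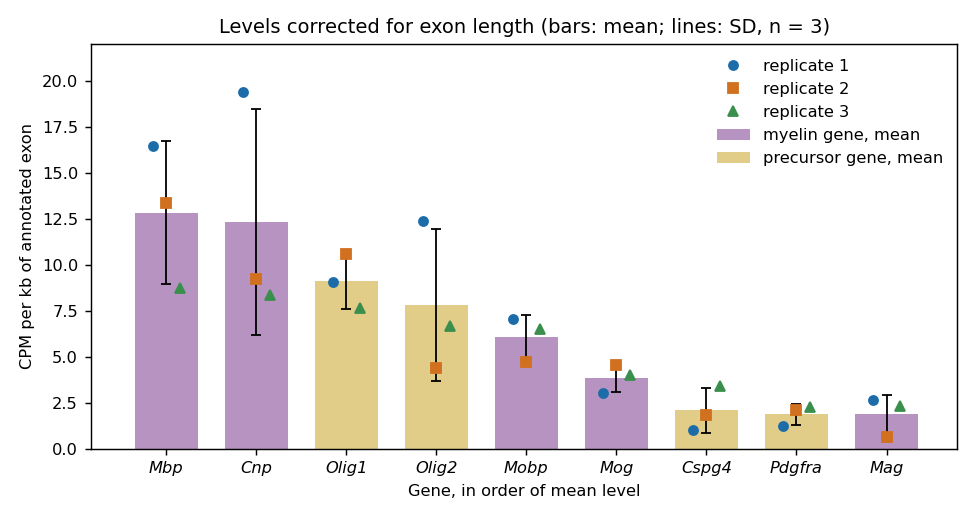
CPM per kb of annotated exon for the 9 genes in order of their mean (bars, purple for myelin and yellow for precursor genes), with SD lines (n = 3) and the 3 libraries as points. Mbp and Cnp lead at 12.8 and 12.3, Olig1 and Olig2 come before Mobp, and Cspg4, Pdgfra and Mag close the order at 2.09, 1.88 and 1.87.

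The myelin genes stood above the precursor genes as a group. The median of log2(CPM per kb + 0.1) was higher by 1.04, 0.61 and 0.43 in replicates 1, 2 and 3, a mean difference of 0.69 ± 0.31 (SD, n = 3), or 1.62-fold. It was positive in 3 of 3 libraries and larger than its spread. A two-sided exact permutation test that flips the sign of each library gave p = 0.25 (adjusted p = 0.25 over 4 contrasts), the smallest that 3 libraries allow, so no contrast here can pass 0.05. With the length of the longest transcript in place of all annotated exons the difference was 1.35 ± 0.49.

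This difference lay against the surface proteins. The myelin median exceeded that of Pdgfra and Cspg4 by 2.57, 1.22 and 1.19 in replicates 1, 2 and 3, a mean of 1.66 ± 0.79 (SD, n = 3). Mbp, Mobp, Cnp and Mog were each above both surface proteins in 3 of 3 libraries, while Mag was above Pdgfra in 2 and above Cspg4 in 1. With the longest transcript 4 of the 5 myelin genes were above Pdgfra and 3 above Cspg4 in all libraries, as Mog, at 3.99 CPM per kb in replicate 3, lay below Cspg4 at 5.03. Against Olig1 and Olig2 the sign was the opposite, at −0.58, −0.52 and −0.13, a mean of −0.41 ± 0.24. That sign rested on the length used, since with the longest transcript the difference was 0.51 ± 0.04 and positive in 3 of 3 libraries. Olig1 and Olig2 exceeded Pdgfra and Cspg4 by 2.07 ± 0.96, and by 1.54 ± 0.97 with the longest transcript. The precursor group thus held a high and a low pair under both lengths. This split was chosen after the values were seen, and each of its contrasts gave p = 0.25 in the exact sign-flip permutation test.

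Other genes of the lineage gave the opposite sign. Of 20 further myelin and mature oligodendrocyte genes 14 were detected, and of 12 further precursor genes 12 were. The mature median was below the precursor median by 0.36, 1.11 and 1.35 on the log2(CPM per kb + 0.1) scale in replicates 1, 2 and 3. The mean difference was −0.94 ± 0.52 (SD, n = 3), with the same sign in every library and p = 0.25 in that exact permutation test. The difference of the 9 genes exceeded this one by 1.63 ± 0.21, in 3 of 3 libraries, with p = 0.25 in the same exact permutation test, which was added after seeing the data. Without length correction the difference was −2.01 ± 0.31, and with genes of at least 5 CPM alone it was −0.17 ± 0.57, smaller than its spread and positive in replicate 1 at 0.45.

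Among those mature genes Omg, a myelin and neuronal surface protein, had the highest mean CPM, with 101, 112 and 160 CPM in replicates 1, 2 and 3. Tspan2, a tetraspanin of myelinating cells, measured 58.4, 44.0 and 32.4 CPM. At the low end, named after their values were seen, Opalin measured 2.43, 1.54 and 1.62 CPM and Cldn11, the tight junction protein of myelin, 0.918, 1.05 and 0.808 CPM. Klk6 had 0 counts in all 3 libraries, which allows up to 0.162, 0.122 and 0.346 CPM, the level of 3 counts. Of the 20 genes 12 were highest in replicate 1, against 31.6% of all tested genes. Of 8 Schwann cell markers 4 were detected.

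The precursor list was led by genes that other brain cells also express. Ptprz1, a receptor phosphatase of precursors and astrocytes, measured 252, 380 and 327 CPM in replicates 1, 2 and 3. Pcdh15, a protocadherin, measured 144, 73.2 and 201 CPM, and the proteoglycan gene Vcan 107, 57.8 and 149 CPM. Per kb these averaged 22.4, 5.87 and 7.24 CPM. Gpr17, a receptor of cells committed to differentiate and named after its values were seen, measured 14.8, 5.35 and 8.77 CPM, or 1.86 CPM per kb on average. Of the 15 mature and 12 precursor genes abundant enough to be tested, edgeR and DESeq2 called 0 as varying, and 2 of the mature and 0 of the precursor genes had an unadjusted p under 0.05.

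**Figure D4:**
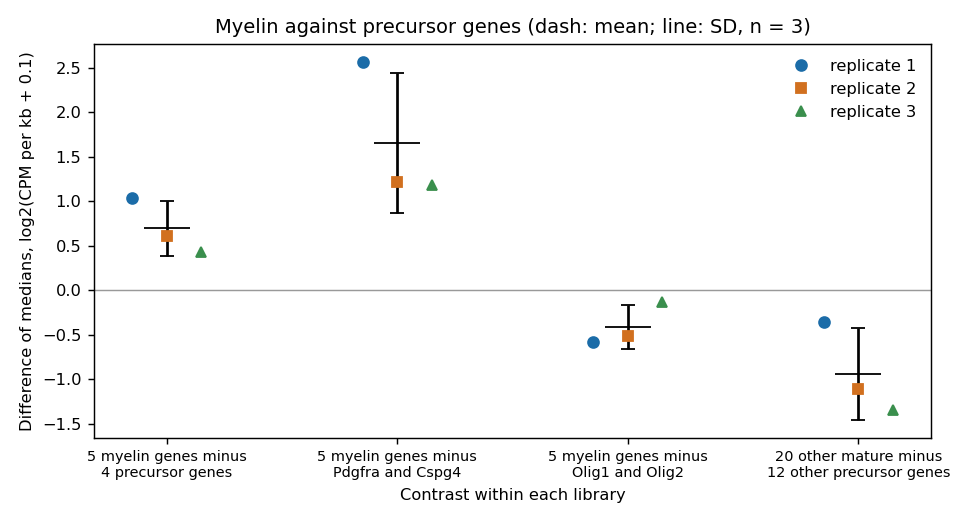
Difference of list medians in log2(CPM per kb + 0.1) within each library (points), with the mean (dash) and SD (vertical line, n = 3), for 4 contrasts. The 5 myelin genes lie above the 4 precursor genes and above Pdgfra and Cspg4, lie below Olig1 and Olig2 by 0.41 with all exons as length, and the 20 other mature genes lie below the 12 other precursor genes.

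The PDGF pathway gene with the highest level was a ligand. Pdgfa, which encodes the ligand of Pdgfra and is made by neurons and astrocytes, measured 93.4, 77.3 and 78.0 CPM in replicates 1, 2 and 3. Per kb it stood at 26.6 CPM, above its receptor at 1.88. Pdgfrb, the receptor of pericytes, measured 19.2, 6.64 and 13.4 CPM, and Pdgfb, its ligand, 12.3, 7.74 and 4.85 CPM. Of the 5 listed ligands and receptors beside Pdgfra 4 were detected, Pdgfd being the exception, and edgeR and DESeq2 called 0 of these 4 as varying, with 0 at an unadjusted p under 0.05.

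Of 13 further transcription factors of the lineage 12 were detected, and Olig3, which belongs to the dorsal spinal cord and hindbrain, had 0 counts in all libraries. Sox9, which astrocytes share, had the highest mean CPM with 86.7, 42.7 and 86.5 in replicates 1, 2 and 3, followed by Sox8 at 40.3, 31.7 and 49.4 CPM and Sox6 at 43.1, 22.8 and 28.6 CPM. Sox10, which drives myelin genes and was named after its values were seen, measured 11.8, 3.65 and 13.0 CPM. Like Mag, Mobp and Olig2 it was lowest in replicate 2, as were 7 of the 13 factors and 37.8% of all tested genes. Myrf, the factor that switches on myelin genes, measured 5.99, 4.13 and 11.997 CPM. Of the 12 that could be tested edgeR and DESeq2 called 0 as varying, with 0 at an unadjusted p under 0.05.

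The 9 genes had a median below those of the astrocyte and pan-neuronal markers and above those of the other cell classes listed. Their median was 3.32-fold below that of the 12 astrocyte markers, a log2 difference of −1.73 ± 0.23 (SD, n = 3) with −1.88, −1.85 and −1.47 in replicates 1, 2 and 3. It was 12.1-fold below that of the 14 pan-neuronal markers, a log2 difference of −3.59 ± 0.45 with −3.52, −4.07 and −3.18. Each library gave the same sign for both, and both exceeded their spread, with p = 0.25 in the exact permutation test (adjusted p = 0.25). The median level of the 20 other mature genes was 1.83 ± 0.707 CPM per kb, and that of the 12 other precursor genes 3.48 ± 0.570. In replicate 1 the other mature genes lay below the mural markers, at 2.64 against 3.03 CPM per kb. The median level of the 9 genes was 6.02 ± 1.31 CPM per kb. That of the mural markers was 1.72 ± 1.17, of the endothelial markers 1.16 ± 0.337, of the fibroblast markers 1.05 ± 0.408, of the microglial markers 0.783 ± 0.237 and of the Schwann cell markers 0.741 ± 0.116 CPM per kb, and these differences were not tested. In RNA captured from tissue, fewer cells of a type, less RNA per cell and a smaller share captured cannot be told apart.

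**Figure D5:**
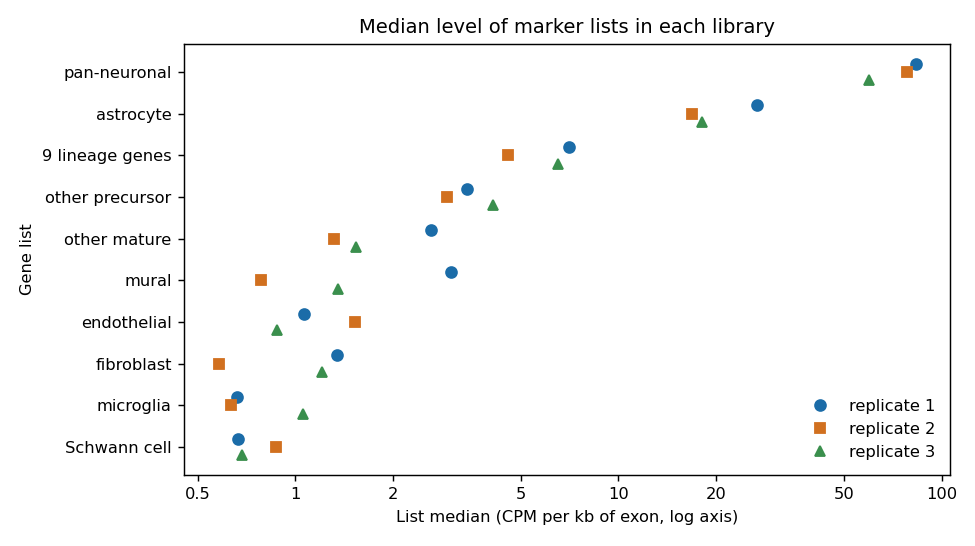
Median CPM per kb of exon of marker lists, on a log axis, for each library (points). The 9 lineage genes lie at 7.04, 4.54 and 6.48 in replicates 1, 2 and 3, below the astrocyte and pan-neuronal lists.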

How the data were processed

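Each library has 1 deposited file of raw read counts by gene symbol, with no scaling by the authors. The submitters' processing notes name STAR 2.0.0e, HTSeq and the mm10 build. The annotation, the strand setting and the kit are not stated in the sources used here. Totals leave out the 5 summary classes of HTSeq. Reads that HTSeq placed in no feature were 31.4%, 25.6% and 45.3% of all entries in replicates 1, 2 and 3. Multiply aligned ones were 32.7%, 24.3% and 16.5%. Replicate 3 thus had the highest share in no feature and the lowest multiply aligned share, and the part of this in its levels was not tested.

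Exon and transcript lengths and positions come from GENCODE M21 on GRCm38, matched by symbol, with a length for 91.9% of detected genes. Each gene was tested for variation over the libraries in edgeR 4.0.16 under R 4.3.3 (TMM, intercept only, trended dispersion, chi-square goodness of fit on 2 degrees of freedom, genes whose mean reached 1 CPM, Benjamini-Hochberg, threshold 0.05), and DESeq2 1.42.0 gave alternatives. This test was tested on simulated data. Medians of gene groups were contrasted inside each library, with a pseudocount of 0.1 CPM per kb, and tested by exact sign-flip permutation. Other steps used Python 3.11.15, pandas 2.3.3 and SciPy 1.17.1. The members, gene lists and tests were chosen with earlier results of these data known. Named genes are the 9 members, the 3 genes of highest mean CPM in each other list and the nearest profiles; others named were chosen after their values were seen. The 3 libraries form 1 group, and other scalings, lengths, filters and each replicate left out were tried. The location of Mbp and the values of some listed genes that this rule covers are not reported here.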

Additional observations from a re-analysis of the deposited data

How the results depend on the processing

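All 4 contrasts fixed for this work kept the sign of their mean under each of these settings (CPM without length, longest transcript, pseudocount 1, means, TMM and DESeq2 scaling, genes of at least 5 CPM, each replicate left out). Some of these settings could not change a sign. TMM and DESeq2 scale all genes of a library alike, which alters a difference within a library only through the pseudocount. The filter at 5 CPM removed genes only from the contrast of the other genes. Each contrast had the same sign in every library, so leaving a replicate out could not change it. With genes of at least 5 CPM the difference in the other genes was −0.17 ± 0.57, within its spread, and turned positive in replicate 1 (0.45). With replicates left out, the myelin minus precursor difference ranged from 0.52 to 0.82 and the difference in the other genes from −1.23 to −0.73. Against Olig1 and Olig2 alone, an alternative added after seeing the data, the myelin difference reversed to −0.41. The alternative has fewer genes by construction, and with the longest transcript it was 0.51. The 32 genes called as varying became 780 with a common dispersion, 21 with DESeq2's dispersion outliers, and 5 to 22 with 1 replicate left out (8 without replicate 1, 5 without replicate 2 and 22 without replicate 3). The cause was not tested. None of the 9 lineage genes was called under any of these settings, with a lowest adjusted p of 0.69. Totals that leave out Rn45s, Malat1 and Meg3 are smaller, so by construction they raised the mean of every lineage gene. Mbp went from 109 to 127 CPM and Olig1 from 19.7 to 23.1 CPM. No paired analysis was possible because there is 1 group. With 8668527 counts replicate 3 has the least depth, where Mog rests on 59 counts and Mag on 82.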

Other observations

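Gene groups that meet myelin on the axon or build its lipids were measured beside the lineage genes. The adhesion partners of myelin, 11 of 11 of which were detected, had a median of 185 ± 11.4 CPM (SD, n = 3) and were led by Rtn4, the gene of Nogo, at 456, 522 and 384 CPM in replicates 1, 2 and 3. Cadm3, an axonal adhesion protein, measured 354, 277 and 524 CPM, and Nfasc, which has an axonal and an oligodendrocyte form, 314, 198 and 412 CPM. The 10 genes of myelin lipid synthesis, 10 of which were detected, had a median of 23.5 ± 5.23 CPM. Scd2, a fatty acid desaturase, led at 305, 252 and 187 CPM, and the sterol enzyme gene Sqle measured 53.6, 55.4 and 62.5 CPM. Ugt8a, the enzyme of the myelin galactolipids, measured 17.8, 3.16 and 3.11 CPM, high in replicate 1 like Cnp, and was named after its values were seen. Of these genes edgeR and DESeq2 called 0 as varying, with 0 at an unadjusted p under 0.05.

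Among 106 listed genes with a mean of at least 5 CPM that are not among the 9, the 3 with the profile over the libraries nearest to the summed myelin genes included the astrocyte water channel gene Aqp4, at a Euclidean distance of 0.15 in centred log2(CPM + 1), and Tspan2 at 0.16. Nearest to the summed precursor genes were Drp2 and Sqle, both at 0.12, and Slc6a13 at 0.18. With 3 libraries such likeness is a description only.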
